A study of Mus musculus with 4 samples.

Results

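The 7 genes described here set how forebrain inhibitory neurons make, package, clear and respond to GABA: Gad1, Gad2, Slc32a1, Slc6a11, Abat, Slc12a2 and Slc12a5. They were picked by name and function from 21938 protein-coding genes, with earlier results of these data known. Of the 21938 genes, 14645 held a region with a peak in every library (a common region), the 7 among them, with 20 of the 46698 common regions. The measurement was single-nucleus chromatin accessibility (10x Genomics Chromium), in which a transposase cuts open DNA and each cut site is counted. Nuclei came from mice of genotype Dlx6aCre;Sun1/sfGFP at postnatal day 30, and the groups were cortex and hippocampus with 2 libraries each. In these mice Cre from the Dlx6a driver, active in developing forebrain inhibitory neurons, switches on a fluorescent nuclear envelope protein, so sorted GFP-positive, DAPI-positive nuclei share a history of Cre and not a present cell type. The labels name no animals, so p-values cover the spread between libraries, which may be technical.

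GABA is made from glutamate by the decarboxylases that Gad1 and Gad2 encode, and the transporter from Slc32a1 loads it into synaptic vesicles. Released GABA is taken up by membrane transporters such as the product of Slc6a11, best known from astrocytes, and is broken down by the transaminase from Abat. Whether GABA inhibits a neuron depends on its chloride gradient, which the importer from Slc12a2 raises inside the cell and the neuronal exporter from Slc12a5 lowers.

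The libraries held 2355 to 5576 nuclei and 32005984 to 117290059 cut sites in peaks, and pairs of libraries shared 11 to 47 barcodes, at most 1.12% of the smaller one. Cortex replicate 2 stood apart. Its peaks covered 33.4 Mb, against 62.1 to 101.4 Mb in the other libraries, and its median nucleus had 7352 cut sites, against 12686 to 47236. Signal is given as CPM, cut sites scaled to a library total of 1000000. The summed signal of the MGE interneuron markers (7 of 8 with a common region) was 395 to 769 CPM and that of the CGE markers (7 of 8) 186 to 294 CPM, where MGE and CGE are the medial and caudal ganglionic eminences that give rise to these cells. Nkx2-1 and Vip had no common region. Markers of other cells were present too, at 235 to 280 CPM for the oligodendrocyte lineage (7 of 12), 219 to 250 CPM for astrocytes (8 of 10), 215 to 263 CPM for microglia (3 of 6), 153 to 212 CPM for striatal projection neurons (7 of 8) and 62.0 to 83.2 CPM for endothelium (3 of 6). Of the excitatory markers 6 of 8 had no common region, and the others summed to 32.8 to 59.2 CPM. These sums rest on 2 to 20 regions per list and are not scaled to covered length, so they do not rank cell types.

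Regions over the starts of genes that make GABA, load it into vesicles and export chloride carried much of each gene's signal. The upstream Slc12a5 start was an exception, at 12.4% to 15.0% of that gene's cut sites in common regions. The sequences just before these starts are shown. They come from RefSeq (GRCm38.p6, plus strand), run 5′ to 3′ and stop before the first annotated exon, and capitals mark matches to the motifs named after them. RefSeq windows matched 5 of the 7 genes. Slc12a5 has 2 of them, an upstream one and one in front of its principal start.
Gad1 chr2:70561879-70562041: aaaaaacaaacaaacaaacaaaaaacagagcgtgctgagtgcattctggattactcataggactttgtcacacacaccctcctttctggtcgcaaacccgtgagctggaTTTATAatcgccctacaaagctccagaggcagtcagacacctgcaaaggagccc
Gad2 chr2:22622077-22622204: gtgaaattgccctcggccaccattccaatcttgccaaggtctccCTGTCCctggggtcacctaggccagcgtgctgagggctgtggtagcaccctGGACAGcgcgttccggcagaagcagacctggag
Slc32a1 chr2:158610508-158610757: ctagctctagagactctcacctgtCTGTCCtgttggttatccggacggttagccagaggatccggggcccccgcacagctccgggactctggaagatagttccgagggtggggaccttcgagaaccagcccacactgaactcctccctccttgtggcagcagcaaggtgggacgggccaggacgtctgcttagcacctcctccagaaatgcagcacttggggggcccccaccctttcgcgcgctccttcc
Slc12a5 upstream, chr2:164960596-164960801: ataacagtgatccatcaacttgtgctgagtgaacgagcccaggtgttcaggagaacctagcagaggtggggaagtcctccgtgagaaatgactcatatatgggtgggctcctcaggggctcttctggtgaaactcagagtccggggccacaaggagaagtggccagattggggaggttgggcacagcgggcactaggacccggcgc
Slc12a5 principal, chr2:164967738-164967982: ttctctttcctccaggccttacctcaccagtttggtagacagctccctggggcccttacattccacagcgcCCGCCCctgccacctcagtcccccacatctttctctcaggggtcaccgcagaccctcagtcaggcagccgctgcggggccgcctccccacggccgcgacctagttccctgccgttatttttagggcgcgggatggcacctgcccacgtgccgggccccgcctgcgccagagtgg

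Searched on both strands were the homeodomain core TAATTA, the cyclic AMP element TGACGTCA, the GC box GGGCGG, the EGR site GCGTGGGCG, TTCAGCACC and GGACAG from the ends of the REST site, and the TATA box TATAAA. The Gad1 stretch held 1 TATAAA on the minus strand, a motif in 13.6% of 32851 RefSeq promoters of 300 bases. GGACAG, in 22.2% of promoters, was matched once on each strand before Gad2 and once before Slc32a1. The principal Slc12a5 stretch held 1 GC box, found in 35.7% of promoters, and its upstream stretch held no match. The printed stretches have 128 to 250 bases, shorter than the 300 behind these shares. In the full 300 bases the Gad1 and the upstream Slc12a5 window each held 1 GC box on the minus strand. TGACGTCA, GCGTGGGCG and TTCAGCACC, in 1.79%, 0.612% and 0.371% of promoters, had no match in the printed stretches.

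Distal accessibility is represented by 3 windows of 300 bases, each centred on the longest stretch that peaks of all 4 libraries covered (GRCm38.p6, plus strand). The Abat window lies in an intron whose signal differed between nuclear classes, the Slc12a5 window lies in the member region with the lowest change in that comparison, and the last one in the only region of Slc6a11 with a peak in every library.
Abat region 4, chr16:8539321-8539620: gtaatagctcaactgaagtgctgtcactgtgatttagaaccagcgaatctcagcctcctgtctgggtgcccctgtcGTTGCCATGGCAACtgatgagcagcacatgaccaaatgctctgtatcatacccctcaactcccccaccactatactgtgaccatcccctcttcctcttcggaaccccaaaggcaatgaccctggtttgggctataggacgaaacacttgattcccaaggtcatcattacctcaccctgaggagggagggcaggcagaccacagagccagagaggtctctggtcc
Slc12a5 region 2, chr2:164964642-164964941: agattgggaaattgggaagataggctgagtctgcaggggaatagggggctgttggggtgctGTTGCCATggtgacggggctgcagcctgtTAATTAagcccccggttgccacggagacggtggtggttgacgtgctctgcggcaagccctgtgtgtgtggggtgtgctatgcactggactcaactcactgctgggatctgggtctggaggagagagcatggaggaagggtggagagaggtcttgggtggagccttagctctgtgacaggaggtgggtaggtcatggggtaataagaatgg
Slc6a11 region 1, chr6:114227459-114227758: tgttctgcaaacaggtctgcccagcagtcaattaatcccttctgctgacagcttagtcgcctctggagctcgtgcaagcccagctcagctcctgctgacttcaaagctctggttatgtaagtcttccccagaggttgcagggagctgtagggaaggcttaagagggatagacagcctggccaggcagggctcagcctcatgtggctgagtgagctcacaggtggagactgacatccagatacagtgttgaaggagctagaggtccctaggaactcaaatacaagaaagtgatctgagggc

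None of the 3 windows overlapped an annotated exon. Slc12a5 region 2 held 1 TAATTA, present in 6.07% of 45812 such windows over all common regions. GTTGCCAT, an 8-letter part of the X-box bound by RFX factors, was added to the search after these sequences had been read, and it occurs in 1.71% of all windows. It was found on both strands in Abat region 4, where the matches overlap, and once in Slc12a5 region 2. The Slc6a11 window held none of the motifs.

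Gad1, which encodes the decarboxylase found throughout the neuron, lies at chr2:70553072-70602014. Each library had 8 to 12 of its own peaks in the gene body or the 2 kb upstream, and 3 regions were common. Region 1 (chr2:70557825-70570454, with coding exons and a UTR) spanned the principal start and carried 70.7% and 77.9% of the Gad1 cut sites in common regions in cortex replicates 1 and 2, and 53.5% and 69.5% in hippocampus replicates 1 and 2. It was the main part of the Gad1 signal in every library. Peaks covered 5972 bp of it in cortex replicate 2 and 10485 to 12630 bp in the others. Region 2 (chr2:70571114-70578847) lay 12.9 kb and region 3 (chr2:70589755-70596890) 31.3 kb beyond the principal start, both over coding exons.

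Gad2, encoding the decarboxylase isoform associated with synaptic terminals, lies at chr2:22622205-22693874. It had 15 and 4 peaks in cortex replicates 1 and 2, and 24 and 10 in hippocampus replicates 1 and 2. Of its 4 common regions, region 1 (chr2:22619375-22625967) covered the start and the others were intronic, 5.69, 21.5 and 30.1 kb downstream. The start region was covered over 1184 bp in cortex replicate 2 and over 5771 to 6593 bp in the other libraries. Common regions held 61.2% of the Gad2 cut sites in hippocampus replicate 1 and 100% in cortex replicate 2, so a common region leaves out more of this gene in some libraries than in others.

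Slc32a1 is compact, at chr2:158610767-158615748, and its single common region (chr2:158608967-158617861) contained the whole gene. Cortex replicate 1 and hippocampus replicate 2 each had 1 peak there, of 8498 and 8623 bp, longer than the gene itself at 4.98 kb. Hippocampus replicate 1 had 2 peaks, of 5361 and 2768 bp, with a gap inside the gene. Cortex replicate 2 had 3, of 1546, 260 and 740 bp. The vesicular GABA transporter gene was thus covered from end to end by a peak in 2 of the 4 libraries.

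Slc6a11 (chr6:114131241-114249952) contrasted with the neuronal genes. Its own peaks numbered 12 and 1 in cortex replicates 1 and 2, and 20 and 9 in hippocampus replicates 1 and 2, and no region at its start was common, since cortex replicate 2 had no peak there. The only common region (chr6:114227308-114228042) was intronic, 96.4 kb beyond the start, and it held 9.15% to 27.2% of the gene's cut sites in the libraries with more than 1 peak. Over all of a library's own peaks, scaled to all its cut sites in peaks, the Slc6a11 signal was 34.3 and 10.0 CPM in cortex and 62.3 and 44.4 CPM in hippocampus. Of 10 astrocyte markers 8 had a common region, and Aqp4 and Gja1 had none.

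Abat, encoding GABA transaminase, lies at chr16:8513429-8621568 and had 5 common regions, of which region 1 (chr16:8512896-8515387) was at the start and the rest were intronic. Region 4 (chr16:8538977-8541382), 26.8 kb into the gene, had 15.9 and 34.5 CPM per kb covered in cortex replicates 1 and 2, and 23.1 and 20.8 CPM per kb in hippocampus replicates 1 and 2. The start region had 19.4 and 65.0 CPM per kb in cortex, and 19.4 and 23.9 CPM per kb in hippocampus. The intronic region was above the start in 1 library and below it in 3. Intronic region 3 carried 7.29% to 11.8% of the Abat cut sites in common regions.

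Among the chloride transporter genes, Slc12a2 (chr18:57878678-57946821) had 1 common region, at its start, holding 87.9% to 100% of its cut sites in peaks. Slc12a5 (chr2:164960802-164999731), with 10 annotated starts, had 5. Region 1 (chr2:164960565-164962764) was at the upstream start and carried 12.4% to 15.0% of the Slc12a5 cut sites in common regions. Region 3 (chr2:164967087-164971764), over the principal start, carried 32.8% to 40.1%. Region 5 (chr2:164991156-165005161) carried 38.7% to 45.5%, but it reaches into the neighbouring gene Ncoa5, so its cut sites cannot be assigned to Slc12a5 alone. The principal start region had 21.5 and 30.1 CPM per kb covered in cortex and 17.6 and 23.4 CPM per kb in hippocampus. The upstream start was lower in each library, at 17.0 and 23.0 CPM per kb in cortex and 13.8 and 20.1 CPM per kb in hippocampus.

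**Figure D1:**
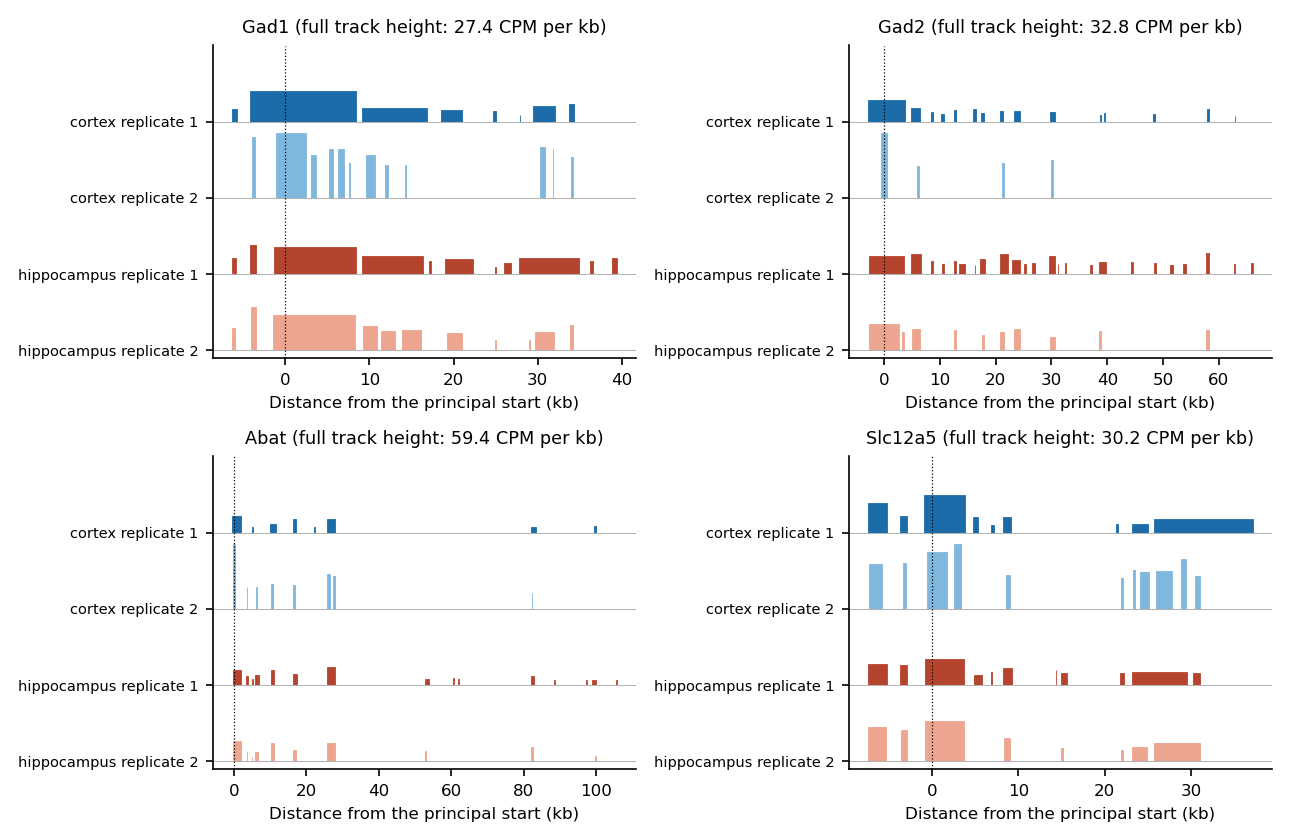
Peaks of each library in Gad1, Gad2, Abat and Slc12a5 against the distance from the gene's principal start in kb. Bar width is the length of a peak and bar height its cut sites in CPM per kb, on 1 scale per gene given in its title. Cortex replicate 2 has short peaks, such as one of 1184 bp at the Gad2 start.

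Levels of the 7 members were compared with each other only per kb of common-region length covered by a library's peaks. The mean level over the 4 libraries was 28.0 ± 7.43 CPM per kb for Slc12a2 (SD, n = 4), 23.7 ± 9.65 for Abat, 23.7 ± 9.40 for Slc32a1, 19.6 ± 5.13 for Slc6a11, 17.4 ± 6.87 for Gad2, 16.8 ± 5.44 for Gad1 and 15.3 ± 4.47 for Slc12a5. No neighbours in this order differed by more than their SDs. For Slc6a11 the level rests on a covered length of 401 to 735 bp.

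The first comparison asked whether accessibility of these genes differed between cortex and hippocampus, and no member passed the threshold. Gad1, Gad2, Slc32a1 and Abat had higher mean levels in hippocampus over common regions, and Slc6a11, Slc12a2 and Slc12a5 lower ones. The direction turned for Gad1, Gad2, Slc32a1 and Abat when the length each library's peaks covered was taken into account. Fewer accessible cells and less accessibility per cell cannot be told apart in such library sums.

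For Gad1 the cut sites in common regions, scaled by TMM (a trimmed-mean library scaling), were 312 and 205 CPM in cortex replicates 1 and 2, and 353 and 281 CPM in hippocampus replicates 1 and 2. The groups overlapped, and the log2 fold change of hippocampus over cortex was 0.29 ± 0.26 (SE, 95% interval -0.31 to 0.90). Gad2 had 124 and 65.9 CPM in cortex and 156 and 125 CPM in hippocampus, a log2 change of 0.56 ± 0.31 (-0.18 to 1.304). The hippocampus libraries of Gad2 lay above both cortex libraries, by little for cortex replicate 1. Slc32a1 had 155 and 124 CPM in cortex and 159 and 166 CPM in hippocampus, a log2 change of 0.22 ± 0.19 (-0.21 to 0.65). Its groups did not overlap either, with a narrow gap between the highest cortex and the lowest hippocampus library.

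Slc6a11, whose common region is short, had 12.7 and 10.9 CPM in cortex and 9.02 and 8.82 CPM in hippocampus, a log2 change of -0.40 ± 0.39 (-1.31 to 0.51). Over all of a library's own peaks its log2 change was 1.304, in the other direction and also short of the threshold (adjusted p = 1.00, edgeR). Abat, the catabolic enzyme, had 138 and 111 CPM in cortex and 165 and 135 CPM in hippocampus, with overlapping groups and a log2 change of 0.27 ± 0.20 (-0.19 to 0.72).

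Slc12a2 had 76.2 and 64.5 CPM in cortex and 50.9 and 70.4 CPM in hippocampus, overlapping groups with a log2 change of -0.22 ± 0.20 (-0.68 to 0.25). Hippocampus replicate 1 alone was low, and without it the log2 change was 0.00. The neuronal exporter gene Slc12a5 had 276 and 273 CPM in cortex and 269 and 264 CPM in hippocampus, a log2 change of -0.04 ± 0.19 (-0.48 to 0.40). Its groups did not overlap, although all 4 libraries lay close together in CPM. Over all of a library's own peaks its log2 change was -0.24, and with the covered length as an offset -0.37.

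**Figure D2:**
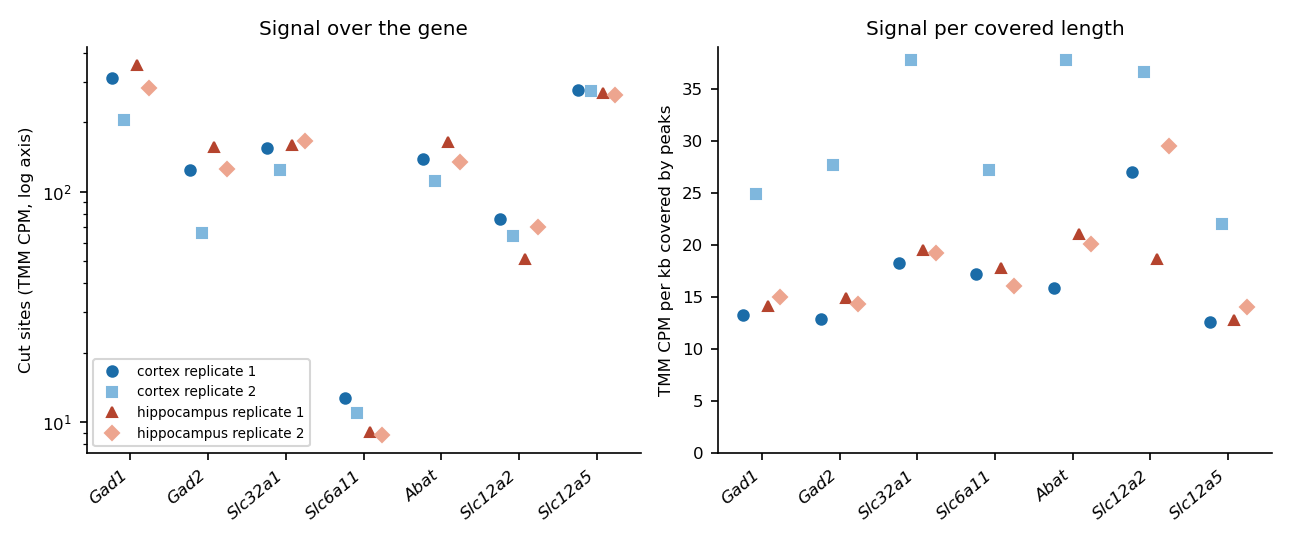
Cut sites of the 7 genes in common regions, 1 point per library. The left panel gives TMM-scaled CPM on a log axis, and the right panel the same values per kb covered by the library's peaks on a linear axis from 0. Cortex replicate 2 is lowest for Gad1, Gad2, Slc32a1 and Abat on the left and highest for all 7 genes on the right.

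In edgeR's quasi-likelihood test over 14645 genes, 0 members and 0% of genes passed a Benjamini-Hochberg adjusted p of 0.05. Of all genes 513 (3.5%) had an unadjusted p under 0.05, none of them a member, and DESeq2 called 21 genes (0.143%) and 0 members. The groups did not overlap for 4 of 7 members, 2 higher and 2 lower in hippocampus, against 26.7% of all genes, 13.4% higher and 13.3% lower. Without cortex replicate 1, edgeR called Gad2 (log2 change 1.09, adjusted p = 0.00222) among 330 genes (2.25%), a fit that takes the spread of the single remaining cortex library from hippocampus. Without cortex replicate 2, 0 members passed among 72 genes (0.492%), with Gad2 at a log2 change of 0.21, and 0 passed among 201 (1.37%) with a block that crosses the replicate numbers. The log2 change of Gad1 was 0.63 without cortex replicate 1 and 0.04 without cortex replicate 2. With the covered length as an offset, chosen after seeing the data, the log2 change was -0.39 for Gad1, -0.47 for Gad2, -0.53 for Slc32a1 and -0.38 for Abat, while the median of all genes moved from -0.01 to -0.27.

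Region by region, none of the 20 member regions passed in edgeR, nor did any of 46698 regions (0%). On simulated data this region test recovered 1 of 100 changes of 2-fold and 35 of 100 of 4-fold, with 13 false calls. Regions that did not pass may therefore still differ. Of all regions 3803 (8.14%) had an unadjusted p under 0.05, with no member among them, and DESeq2 called 352 (0.754%) and 0 members. The groups did not overlap in 10 of 20 member regions, against 36.9% of all regions, 21.4% higher and 15.4% lower in hippocampus. Of these member regions only that of Slc6a11 was lower in hippocampus. With the covered length as an offset, the change turned negative at Gad1 regions 2 and 3, Slc32a1, Abat region 4 and Slc12a5 regions 2 and 4. It stayed positive at Gad2 regions 2 and 3 and Abat region 2. The highest log2 change was at Gad2 region 3 (chr2:22643037-22644367, intron), with 2.89 and 7.56 CPM in cortex and 19.6 and 8.05 CPM in hippocampus, 1.41 ± 0.66 (-0.29 to 3.11). Hippocampus replicate 1 was far above the other 3 libraries there, and without it the log2 change was 0.56. The lowest was at the intronic Slc6a11 region, with 11.5 and 10.95 CPM in cortex and 8.11 and 9.11 CPM in hippocampus (log2 change -0.38 ± 0.28).

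At the Gad1 start 201 and 160.3 CPM in cortex stood against 170.0 and 202 CPM in hippocampus, at the Abat start 48.1 and 42.7 CPM against 46.0 and 56.3 CPM, and at the Slc12a2 start 69.4 and 64.8 CPM against 45.8 and 72.8 CPM. The groups overlapped at all 3. The Gad2 start had 89.8 and 42.6 CPM in cortex and 82.1 and 94.1 CPM in hippocampus, where cortex replicate 2 alone was low. Log2 changes at the upstream and principal starts of Slc12a5 were -0.03 ± 0.25 and -0.10 ± 0.27. Without cortex replicate 1, 2 member regions passed, named here after their values were seen, against 6.84% of all regions. They were intronic Gad2 region 2 (log2 change 1.87, adjusted p = 0.00767, edgeR) and Abat region 5 (3.82, adjusted p = 0.000525, edgeR), of which cortex replicate 2 covered 45 bp. Without cortex replicate 2, 0 passed, against 1.83%, and with the crossed block Gad2 region 3 did (log2 change 1.42, adjusted p = 0.0401, edgeR), against 1.95%.

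The second comparison asked how the genes varied with the lineage signal of a nucleus. Nuclei of each library were ranked by a score of Lhx6 over Adarb2 cut sites, where Lhx6 marks interneurons from the MGE and Adarb2 those from the CGE, and the highest and lowest 33.3% (Lhx6-leaning and Adarb2-leaning nuclei) were compared within libraries. Sums over whole genes differed by at most 0.25 on the log2 scale between these classes. Within Abat, however, intronic region 3 was higher and intronic region 4 lower in Lhx6-leaning nuclei.

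The classes separated other markers of the same lineages, which the score did not use. Sst, Pvalb, Satb1, Sox6 and Kcnc2 rose in Lhx6-leaning nuclei, and Npas1, Htr3a, Nr2f2, Cnr1 and Sp8 fell, while Prox1 had a log2 change of -0.68 ± 0.25 (adjusted p = 0.264, edgeR). Cut sites per nucleus are sparse, so the classes are ranges and not cell types. In cortex replicate 2, 73.8% of nuclei had no cut site in either gene, and such nuclei made up 52.0% of its Lhx6-leaning and 69.4% of its Adarb2-leaning class. In the hippocampus libraries they made up 47.5% and 39.5% of the Adarb2-leaning classes. A stricter definition, nuclei with a cut site in only one of the 2 genes (single-gene nuclei), was therefore added after seeing the data. It compared 643 to 1976 Lhx6 nuclei with 256 to 565 Adarb2 nuclei per library. The Lhx6 class was deeper in every library by both definitions. In single-gene nuclei its median was 38678 and 8371 cut sites in cortex and 10343 and 14299.5 in hippocampus. The Adarb2 class had 31124.5 and 7704, and 9107 and 13287. Of the markers named, Pvalb, Sox6, Nr2f2 and Prox1 kept their direction in single-gene nuclei without passing (adjusted p = 0.310, 0.121, 0.0647 and 0.256, edgeR). The others passed.

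At the level of whole genes no member passed by score, against 9.47% of all genes in edgeR (5.47% higher and 4% lower in Lhx6-leaning nuclei). Only Slc6a11 among members had an unadjusted p under 0.05, as did 21.6% of all genes, and DESeq2 called 634 genes (4.33%) and 0 members. Gad1 had 300.2, 202, 371 and 301 CPM in Lhx6-leaning nuclei of cortex replicates 1 and 2 and hippocampus replicates 1 and 2, and 331, 202, 359 and 283 CPM in Adarb2-leaning nuclei, a log2 change with a 95% interval of -0.07 to 0.07. The intervals for Gad2 (-0.10 to 0.06), Slc32a1 (-0.03 to 0.13), Slc12a2 (-0.07 to 0.15) and Slc12a5 (-0.06 to 0.07) were about as narrow. Slc6a11 had 14.7, 10.3, 9.74 and 10.6 CPM in Lhx6-leaning and 11.7, 9.21, 8.20 and 9.10 CPM in Adarb2-leaning nuclei. It was higher in the Lhx6-leaning class of 4 of 4 libraries without passing (log2 change 0.25 ± 0.12, adjusted p = 0.224, edgeR).

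Abat, the GABA-degrading enzyme, was the member whose call changed with the definition of the classes. By score it had 134, 109, 166 and 134 CPM in Lhx6-leaning and 146, 109.8, 165 and 148 CPM in Adarb2-leaning nuclei, a log2 change of -0.07 ± 0.04 (adjusted p = 0.283, edgeR). In single-gene nuclei it had 134, 102, 166 and 134 CPM in the Lhx6 class and 152, 134, 179 and 152 CPM in the Adarb2 class. It was lower in the Lhx6 class of 4 of 4 libraries and fell by 0.20 ± 0.06 on the log2 scale (adjusted p = 0.0225, edgeR), where 11% of all genes passed. Counted only in regions that each library's peaks covered by 50% or more, Abat is reduced to its region 4, described next, so that count is no separate value for the gene.

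Of the 20 member regions, 1 rose and 2 fell by score in edgeR, 3 in all against 13.6% of all regions (7.61% higher and 5.95% lower), and 4 had an unadjusted p under 0.05, against 27.7%. DESeq2 called 3 as well, against 13.4%. On simulated data the edgeR region test between these classes recovered 13 of 100 changes of 1.2-fold and 94 of 100 of 2-fold. It made 35 false calls there, and whether a call at a member region is false was not tested. Abat region 3 had 18.0, 13.2, 19.8 and 11.5 CPM in Lhx6-leaning and 12.1, 11.6, 13.1 and 8.38 CPM in Adarb2-leaning nuclei. It was higher in the Lhx6-leaning class of 4 of 4 libraries, by 1.39-fold (log2 change 0.47 ± 0.11, interval 0.23 to 0.71, adjusted p = 0.0125, edgeR). Abat region 4, whose sequence is printed above, went the other way, with 35.4, 43.8, 53.1 and 41.7 CPM against 43.8, 47.6, 56.9 and 56.6 CPM. It was lower in the Lhx6-leaning class of 4 of 4 libraries (log2 change -0.25 ± 0.06, adjusted p = 0.0134, edgeR).

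In single-gene nuclei 1 member region rose and 1 fell, both in Abat, where 18.2% of all regions passed (9.77% higher and 8.41% lower). Region 3 had 17.0, 15.3, 19.9 and 10.99 CPM in the Lhx6 class and 5.93, 7.94, 9.78 and 5.96 CPM in the Adarb2 class, a 2.16-fold difference (log2 change 1.11 ± 0.20, interval 0.68 to 1.54, adjusted p = 0.0035, edgeR). Its Adarb2 values rest on 23 to 53 cut sites per library. Region 4 had 35.6, 36.4, 53.7 and 40.0 CPM in the Lhx6 class and 53.1, 60.4, 68.6 and 65.6 CPM in the Adarb2 class. It was 1.49-fold higher in the Adarb2 class (log2 change -0.58 ± 0.08, adjusted p = 0.00142, edgeR). Both regions moved the same way in every library, as did 34% of all regions by score and 38.2% in single-gene nuclei.

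A ratio of the 2 Abat regions within each class is free of library scaling. The regions were taken for it because they had been called in opposite directions between these classes, so the ratio describes those calls and adds no support to them. For every 100 cut sites in region 4 of single-gene nuclei, region 3 had 47.8 and 41.9 in the Lhx6 class of cortex replicates 1 and 2, and 37.0 and 27.5 in that of hippocampus replicates 1 and 2. In the Adarb2 class it had 11.2 and 13.1 in cortex and 14.2 and 9.09 in hippocampus. The ratio was 2.60 to 4.29 times higher in the Lhx6 class. By score it was 1.24 to 1.87 times higher, lowest in cortex replicate 2, the library with most nuclei without a cut site in either gene.

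**Figure D3:**
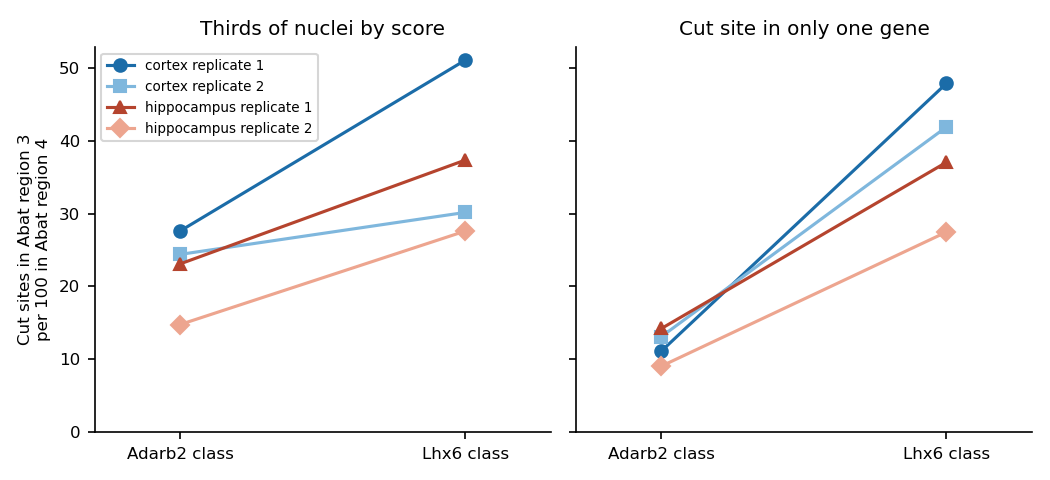
Cut sites in Abat region 3 for every 100 in Abat region 4, in the Adarb2 and the Lhx6 class of each library, joined by a line per library, with nuclei classed by score (left) or as single-gene nuclei (right). Each line rises from the Adarb2 to the Lhx6 class, and on the right the Adarb2 values of 9.09 to 14.2 lie below the Lhx6 values of 27.5 to 47.8.

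Gad1 region 2, over coding exons, fell by 0.18 ± 0.05 on the log2 scale by score (adjusted p = 0.0269, edgeR), with 52.2, 24.5, 80.3 and 59.3 CPM in Lhx6-leaning and 64.3, 27.1, 86.3 and 64.9 CPM in Adarb2-leaning nuclei. It did not pass without cortex replicate 1 (log2 change -0.14, adjusted p = 0.175, edgeR), nor without hippocampus replicate 1 (-0.21, adjusted p = 0.0681, edgeR) or 2 (-0.19, adjusted p = 0.0682, edgeR). In single-gene nuclei it was lower in 2 of 4 libraries and did not pass (log2 change -0.21 ± 0.10, adjusted p = 0.187, edgeR). Slc12a5 region 2 (chr2:164964232-164965072), an intron between the upstream and principal starts, had the lowest log2 change among member regions by score, -0.38 ± 0.12 (adjusted p = 0.0539, edgeR). It had 6.87, 7.70, 11.2 and 10.6 CPM in Lhx6-leaning and 8.30, 11.8, 13.9 and 13.6 CPM in Adarb2-leaning nuclei, lower in 4 of 4 libraries. It passed without nuclei high in oligodendrocyte-lineage markers (log2 change -0.41, adjusted p = 0.0446, edgeR) and without cortex replicate 1 (-0.42, adjusted p = 0.0355, edgeR). In single-gene nuclei it was lower in 4 of 4 libraries but did not pass (log2 change -0.52 ± 0.20, adjusted p = 0.0978, edgeR). The start regions of the 6 genes that have a common one had log2 changes between -0.10 at Abat and 0.05 at Slc12a5 region 5.

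**Figure D4:**
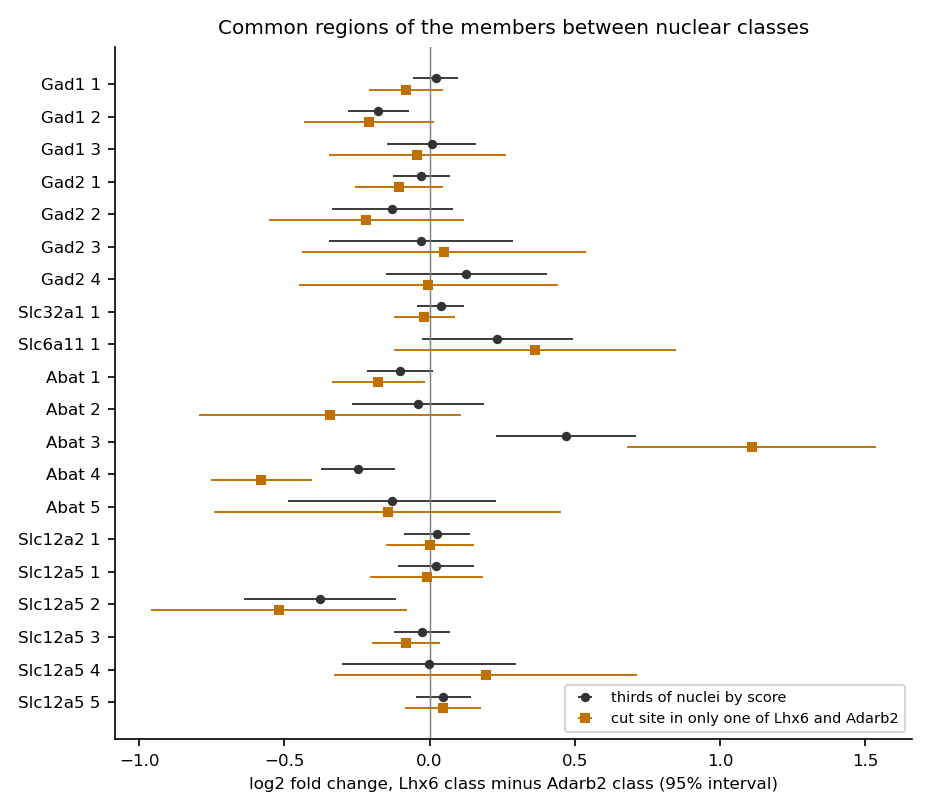
Log2 fold change of each of the 20 member regions between the Lhx6 and the Adarb2 class, with 95% intervals from edgeR, numbered along each gene. Circles compare nuclei classed by score and squares single-gene nuclei. Abat region 3 lies to the right of 0 (0.47 and 1.11) and Abat region 4 to the left (-0.25 and -0.58).

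The calls at Abat by score were lost under some alternatives. With each nucleus thinned to 5000 cut sites, which also left out shallower nuclei and formed the classes anew, region 3 had a log2 change of 0.43 (adjusted p = 0.117, edgeR) and region 4 one of -0.18 (adjusted p = 0.223, edgeR), and 0 of 20 member regions passed among 2458 regions called. Without hippocampus replicate 1 region 4 alone passed, and region 3 had a log2 change of 0.42 (adjusted p = 0.0909, edgeR). Without hippocampus replicate 2 region 3 alone passed, and region 4 had -0.18 (adjusted p = 0.102, edgeR).

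Whether the class difference itself differed between cortex and hippocampus was tested as an interaction. No member passed, against 0.041% of genes in edgeR, and DESeq2 called 0 genes. Unadjusted p was under 0.05 for 6.66% of all genes, Gad1 and Slc32a1 among them. The Gad1 class difference was higher in hippocampus by 0.15 ± 0.06 on the log2 scale (0.03 to 0.27, adjusted p = 0.626, edgeR). Gad1 was 0.05 and 0.09 higher in Lhx6-leaning nuclei of the hippocampus libraries and had -0.14 in cortex replicate 1 and -0.00 in cortex replicate 2, so the cortex side rests on 1 library. For Slc32a1 the difference was 0.16 ± 0.07 (0.02 to 0.30, adjusted p = 0.705, edgeR), and -0.03 in single-gene nuclei. Over regions, 2 of 46698 passed (0.00428%) and 0 of 20 member regions, with 6.28% of regions and 3 member regions at an unadjusted p under 0.05. In single-gene nuclei 0.687% of regions passed and 0 member regions.

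The third comparison set nuclei high in oligodendrocyte-lineage markers (summed CPM of the list over 3 times the library mean) against the others, a class not expected to use GABA as a transmitter. Gad1, Gad2, Slc32a1, Abat and Slc12a5 fell in these nuclei, while the chloride importer gene Slc12a2 was higher in 4 of 4 libraries without passing. Of 7 MGE interneuron markers 4 fell too (median log2 change -0.57), and of 7 CGE markers 2 fell and 1 rose (median -0.54). Of all genes 8.39% fell and 7.29% rose. Of 8 astrocyte markers 2 fell (median -0.40). The part of these in the result was not tested. Per library 46 to 392 nuclei, 1.95% to 7.03%, were marker-high. Of the list, Mog, Mag, Olig2, Mobp and Aspa had no common region, so the class rests on 7 of 12 markers. The nuclei's median depth was 2537 to 20835 cut sites, against 6988 to 37536 in the other nuclei.

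Slc32a1 had 72.5, 92.4, 52.9 and 43.7 CPM in marker-high nuclei of cortex replicates 1 and 2 and hippocampus replicates 1 and 2, and 153, 127, 161 and 170.1 CPM in the others. It was lower in 4 of 4 libraries, at 0.42 times the level of the other nuclei (log2 change -1.25 ± 0.21, adjusted p = 0.008, edgeR). Gad2 had 42.7, 62.6, 63.9 and 27.2 CPM against 122, 66.5, 158 and 129 CPM (log2 change -1.25 ± 0.27, adjusted p = 0.0157, edgeR), with little difference in cortex replicate 2. Gad1 had 149, 164, 187 and 58.8 CPM against 308, 208, 357 and 288 CPM (log2 change -1.12 ± 0.24, adjusted p = 0.0163, edgeR), lower in 4 of 4 libraries.

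Slc12a5, a neuronal gene in the adult brain, had 140.0, 244, 146 and 78.4 CPM in marker-high nuclei and 272, 276, 272 and 269.9 CPM in the others (log2 change -0.93 ± 0.21, adjusted p = 0.0177, edgeR). Abat fell less, by 0.44 ± 0.14 on the log2 scale (adjusted p = 0.0463, edgeR), with 109, 103, 103 and 86.7 CPM against 136, 112, 166 and 136 CPM. Slc12a2 had 112, 73.5, 53.7 and 82.9 CPM against 74.2, 64.4, 50.7 and 69.5 CPM (log2 change 0.29 ± 0.14, adjusted p = 0.174, edgeR). Slc6a11 had 8.94, 13.1, 0.853 and 2.53 CPM against 12.4, 10.9, 9.22 and 9.02 CPM, a log2 change with a wide error (-0.87 ± 0.48, adjusted p = 0.219, edgeR).

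In all, 5 of 7 members fell and 0 rose, against 15.7% of all genes (8.39% lower and 7.29% higher). Unadjusted p was under 0.05 for 5 members and 33.7% of genes, and DESeq2 called 5 members and 19.3% of genes. The calls rest on few nuclei. Without cortex replicate 1, 0 members passed among 70 genes called, with Slc32a1 at a log2 change of -1.32 (adjusted p = 0.0694, edgeR), and without hippocampus replicate 1, 0 passed among 11, with Slc32a1 at -1.18 (adjusted p = 0.178, edgeR). Without cortex replicate 2, 6 members passed, Slc6a11 included (log2 change -1.52, adjusted p = 0.0443, edgeR). Without hippocampus replicate 2, Abat alone was lost (log2 change -0.37, adjusted p = 0.185, edgeR). A limit of 2 times the library mean left 1 member, Slc32a1 (log2 change -0.59, adjusted p = 0.0367, edgeR).

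**Figure D5:**
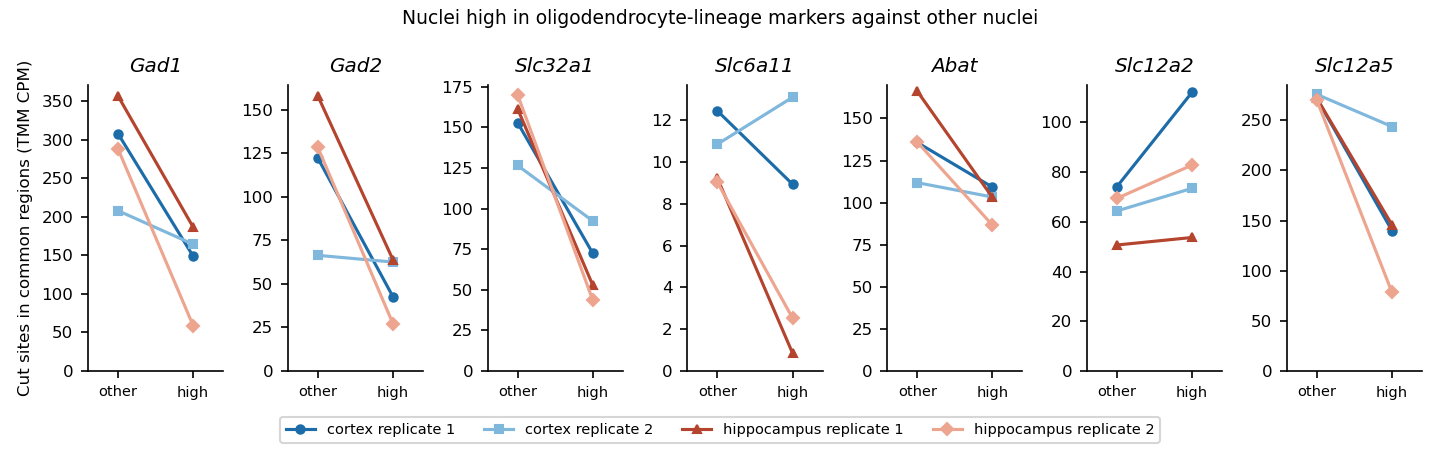
TMM-scaled CPM of each gene in nuclei high in oligodendrocyte-lineage markers (high) and in the other nuclei of the same library (other), joined by a line per library, each axis from 0. Gad1, Gad2, Slc32a1, Abat and Slc12a5 are lower in high nuclei of the 4 libraries and Slc12a2 is higher, and Gad2 in cortex replicate 2 goes only from 66.5 to 62.6 CPM.

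Region by region, 7 of 20 members passed, all lower in marker-high nuclei, against 6.94% of all regions (1.91% lower and 5.03% higher), and 12 had an unadjusted p under 0.05, against 28.4%. They were Gad1 regions 1 and 2, Gad2 region 1, the Slc32a1 region, Abat region 4 and Slc12a5 regions 3 and 5. The lowest log2 change was at Gad1 region 2 (-1.25 ± 0.26) and the highest at the Slc12a2 start (0.46 ± 0.18, adjusted p = 0.107, edgeR), where the median of the members was -0.78 and that of all regions -0.24. Within Abat the start region had a log2 change of 0.07 ± 0.19 (adjusted p = 0.815, edgeR) and intronic region 4 one of -0.79 ± 0.23 (adjusted p = 0.0445, edgeR). The difference between these 2 changes was not tested.

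Shares of nuclei with a cut site were compared at equal depth, with every nucleus thinned to 5000 cut sites and shallower ones left out (8 and 1197 in cortex replicates 1 and 2, 1315 and 252 in hippocampus replicates 1 and 2). In the common regions of Gad1, 70.3%, 49.0%, 66.1% and 63.6% of the other nuclei had a cut site, against 31.1%, 39.7%, 55.6% and 15.1% of marker-high nuclei. For Slc32a1 the shares were 47.6%, 35.1%, 41.7% and 46.0% against 11.1%, 26.4%, 20.4% and 10.8%. For Gad2 they were 37.9%, 20.9%, 40.7% and 38.7% against 13.3%, 23.1%, 22.2% and 7.83%, not lower in cortex replicate 2. The marker-high shares rest on 45, 121, 54 and 166 nuclei. The exact (Clopper-Pearson) 95% interval for Gad1, which covers counting error only, was 18.2% to 46.6% in marker-high nuclei of cortex replicate 1. Slc12a2 went against its CPM in hippocampus replicate 1, with 5.56% of marker-high and 15.9% of other nuclei. Slc6a11 had a cut site in 3.03% to 5.11% of all thinned nuclei.

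Along the score, Gad1 was most like Gabbr2, a subunit of the metabotropic GABA receptor (Pearson r = 0.81), and Grin2a (0.74), over 40 sums (10 bins of the Lhx6 over Adarb2 score in each library, log2 CPM centred within libraries) among 7135 genes of at least 50 CPM. The closest genes of the other members were Gipc2 and Shank3 for Gad2 (r = 0.69 and 0.68), Nat8l and Asphd1 for Slc32a1 (0.59 and 0.59), Lmo3 and Clstn3 for Slc6a11 (0.72 and 0.67), Lima1 and Metap1d for Abat (0.68 and 0.66), Smurf1 and Trp53 for Slc12a2 (0.67 and 0.61) and Atxn1 and Gria1 for Slc12a5 (0.70 and 0.64). These are the highest of 7135 values for each member, whose 99th percentile was an r of 0.41 to 0.51. Among the members themselves Gad1 and Gad2 were most alike (r = 0.65) and Gad1 and Slc12a2 least (r = -0.41). In 13 of the 40 sums, 6 of them from cortex and 7 from hippocampus, no nucleus had a cut site in Lhx6 or Adarb2, so the order of those bins holds no lineage signal. Sums of a library share its nuclei, depth and peaks, so these values describe 4 libraries and not 40 samples. Within a library the highest bin exceeded the lowest by 1.15 to 1.45 times for Gad1 and by 1.84 to 5.80 times for the sparse Slc6a11.

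Of 32 other genes of GABA handling and chloride control, 26 were tested. Between cortex and hippocampus 0 passed in edgeR, and 4 had an unadjusted p under 0.05, against 3.5% of all genes. Among the 4, named after their values were seen, Gls2 (log2 change -0.44) and Car7 (-0.36) were lower in hippocampus and Ano1 (0.44) was higher. The median log2 change of the list was 0.02, against -0.01 for all genes. Between Lhx6-leaning and Adarb2-leaning nuclei 1 of the 26 rose and 2 fell, a share near the 9.47% of all genes called. Slc4a8, a sodium-driven chloride bicarbonate exchanger, rose by 0.16 ± 0.04 on the log2 scale (adjusted p = 0.0168, edgeR). The potassium chloride cotransporters Slc12a7 (log2 change -0.56 ± 0.14, adjusted p = 0.00834, edgeR) and Slc12a4 (-0.40 ± 0.12, adjusted p = 0.037, edgeR) fell. Slc12a5, of the same family, had 0.01 ± 0.03. In single-gene nuclei 4 of the 26 rose (Slc4a8, Slc1a1, Slc4a10 and Car2) and 2 fell (Slc12a7 and Slc1a2), where 11% of all genes passed.

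In nuclei high in oligodendrocyte-lineage markers 2 of the 26 rose and 6 fell, against 7.29% of all genes higher and 8.39% lower, and the list's median log2 change was -0.21, against 0.01 for all genes and -0.93 for the members. Those that rose were Glul, glutamine synthetase (0.52 ± 0.14), and Car2, a carbonic anhydrase (0.83 ± 0.22). Slc1a2, a glutamate transporter that is also on the astrocyte list, fell (-0.97 ± 0.20), as did Slc38a1, a glutamine transporter (-0.82 ± 0.18). The others that fell were Ano1, Slc4a3 and the kinase genes Wnk2 and Wnk4, which regulate cation chloride cotransporters, with log2 changes of -0.60 to -1.01.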

How the data were processed

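Deposited per library were barcodes, peaks and a matrix that the authors left as raw counts of cut sites per peak and nucleus. Per the submitters' processing notes the tool was Cell Ranger ATAC 1.2.0 and the build GRCm38 (mm10), and each library has its own peak set. Deposited motif matrices were not used here.

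Peaks overlapping by 1 bp were merged (bedtools 2.31.1) into 185260 regions, of which 46698 held a peak of every library. Counts were summed over the nuclei of a library or class, since nuclei are not replicates. Gene values are sums over common regions in the gene body or 2 kb upstream (GENCODE annotation), and a start region lies within 1 kb of an annotated start. Libraries were grouped by brain region. edgeR 4.0.16 (R 4.3.3, TMM scaling, quasi-likelihood test) was fitted over all features, on 2 against 2 libraries or on 8 class sums with library as block, and DESeq2 1.42.0 was an alternative. Scripts were tested on simulated data. Doublets were not removed. A few items are not reported here.

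All members are named, with their start regions, regions past the threshold and those with the highest and lowest change, pathway genes past the threshold, and the 2 genes most like each member. The members and lists were chosen with earlier results of these data known.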

Additional observations from a re-analysis of the deposited data

How the results depend on the processing

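The short peaks of cortex replicate 2 limit the comparison of brain regions, and few cut sites limit Slc6a11 and the marker-high nuclei. No value turned direction where it had been called. Of 72 alternative counts of members called, 60 stayed within 1.5 times. A count of 0 beside a main count of 0 was taken as staying, so the 60 say little about stability in such comparisons. Between hippocampus and cortex, leaving out 1 library in turn gave 0 to 1 member genes (of 0 to 330 called) and 0 to 2 member regions (of 0 to 3193). Between the Lhx6 and Adarb2 classes, single-gene nuclei and regions covered by 50% or more gave 1 member gene each (in the latter Abat consists of its region 4 alone, already called as a region), and leaving out 1 library gave 1 to 3 member regions. Thinning and a fit with no library block gave 0 member regions. For the marker-high nuclei a limit of 2 times the mean gave 1 member gene, and leaving out 1 library gave 0 to 6. The cause of these changes was not tested.

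Counts over all features moved too. Class calls fell from 1387 genes to 783 to 1244 without 1 library, 634 in DESeq2, 437 after thinning, 624 near gene starts, 917 in regions covered by 50% or more and 1 with no library block, and from 6332 regions to 2458 after thinning, 3257 and 3044 without hippocampus replicates 1 and 2, and 1 with no library block. After thinning 41.3% of region calls were higher, against 56.1%. Marker-high calls were 2295 genes, 511 at 2 times (74.6% higher, against 46.5%), 1028 at 5 times (32.8%) and 11 to 4840 without 1 library. Interaction calls were 6 genes, and 0 to 144 without 1 library.

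Replicate numbers name libraries only. With a replicate block, 0 member genes and 0 member regions passed, as without it (1 and 3 at an unadjusted p under 0.05). Same-numbered libraries deviated apart (r = -0.206 over 14464 genes). A crossed replicate block, added after seeing the data, called 201 genes (1.37%) and 909 regions (1.95%), of which 0 member genes and 1 member region.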
